A study of Populus davidiana with 6 samples.

Results

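The most abundant transcripts in leaves of Populus davidiana, an aspen, were compared between briefly air-dried and control plants of the cultivar Palgong2. A locus belonged to the set when its summed FPKM, a read measure divided by transcript length and library depth, averaged at least 300 over the 3 control libraries. It also needed at least 1 transcript named after a reference gene model (prefix POPTR), whether annotated or assembled from the reads, no transcript spanning under 500 bases and a locus span of up to 8000 bases. These rules left 278 of 40537 loci, out of 31984 that met the structural conditions at any level. Only the control libraries decided the level, so the control values given here are descriptions.

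Air-dried leaves came from plants about 6 weeks old of the cultivar Palgong2, labelled drought tolerant, which were taken out of the medium, rinsed in sterile water and exposed to air for some 10 min. Control leaves came from plants of the same cultivar, also about 6 weeks old, at the same seedling stage. Both were grown in the same in vitro culture on sucrose medium with naphthalene acetic acid. The sources used here do not say whether the control plants were also lifted and rinsed. Each group held 3 leaf libraries of poly(A) RNA, and no label ties a library to a separate plant or culture, so the p-values measure the spread between samples that may be technical. The files hold no counts, and absolute depth is unknown; steps between the lowest values put the depth of the other libraries at 0.908 to 1.01 times that of control replicate 1.

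In a green leaf, a small number of genes supplies a large part of the messenger RNA. Such genes commonly encode proteins of the light reactions and of carbon fixation, above all the light-harvesting proteins and the small subunit of Rubisco, together with ribosomal proteins, metallothioneins and other housekeeping products. The deposited tables give identifiers but no gene name or product, so which of the 278 loci encode such proteins is not known here, the leaf label could not be checked against marker genes, and loci are given by position. The sources used here do not give the genome build.

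The abundant loci were mostly a little lower in air-dried leaves, both in FPKM as deposited and relative to the typical tested locus. Of the 277 abundant loci that entered the test, 186 had a log2 change below 0, or 67.1%, against 37.0% of all 22729 tested loci. The median log2 change of the abundant loci, air-dried minus control, was -0.13, against 0.07 over all tested loci. The sign of the median over all tested loci depends on scaling, with 0.00349 after median-of-ratios scaling, -0.05 after quantile normalization and upper-quartile scaling and -0.06 after equal sums over loci without short transcripts. In whole leaves, fewer cells of a type and less RNA per cell cannot be told apart. Air-dried values lay entirely below the control values at 100 abundant loci and entirely above them at 38. The same held for 10.3% and 22.6% of all tested loci.

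Few of these differences passed an adjusted test with 3 libraries per group. In limma's moderated test on log2(FPKM + 1), two-sided and adjusted by Benjamini-Hochberg over all tested loci, 20 abundant loci fell and 9 rose. The background was 2.81% of all tested loci lower and 7.28% higher, and the abundant loci stood at 7.22% lower and 3.25% higher. Both directions together made 29 loci, or 10.5%, against 10.1% of all tested loci. At an unadjusted p under 0.05 the numbers were 69 lower and 26 higher, or 24.9% and 9.39%, against 8.0% and 18.3% of all tested loci. The other 248 tested loci did not pass, and 222 of them had changes smaller than 0.5 on the log2 scale.

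These counts depend on scaling and on each library, and so do those over all tested loci, which were 638 lower and 1655 higher in FPKM as deposited. Scaling by median of ratios called 32 abundant loci lower and 8 higher, among 1031 lower and 1315 higher over all tested loci. Upper-quartile scaling called 33 and 4 abundant loci, among 1308 lower and 1111 higher. Quantile normalization called 10 and 1, among 1191 lower and 996 higher, and equal sums over loci without short transcripts called 2 and 2, among 333 lower and 577 higher. Without air-dried replicates 1, 2 and 3 in turn the test called 17, 5 and 3 loci lower and 12, 2 and 1 higher, and without control replicates 1, 2 and 3 it called 3, 15 and 3 lower and 2 each time higher. Over all tested loci the same fits called 688, 300 and 237 lower and 1449, 1018 and 795 higher without the air-dried replicates, and 238, 317 and 231 lower and 877, 987 and 876 higher without the control replicates. The lower median of the abundant loci did not turn round under any of these settings. Relative to the median of all tested loci it lay 0.201 log2 units lower as deposited, 0.210 lower after median-of-ratios scaling, 0.217 after upper-quartile scaling, 0.219 after equal sums and 0.384 after quantile normalization, settings that moved the median of all tested loci by -0.07, -0.12, -0.13 and -0.12.

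Choosing loci for high control values favours those whose controls happened to be high, which tilts the change downwards. To measure this, loci were chosen from 1 control library at the same level and the change of the air-dried libraries was taken against the other 2 control libraries. The median change was -0.07 for 290 loci chosen from control replicate 1, -0.15 for 261 chosen from control replicate 2 and -0.14 for 266 chosen from control replicate 3, against 0.07 to 0.08 over all tested loci. Chosen from the air-dried libraries instead, 289 loci had a median of -0.03, with 10 called lower and 30 higher, and chosen from all 6 libraries, 280 loci had a median of -0.07, with 13 lower and 20 higher. The median thus stayed below that of all tested loci in each of these choices, while the balance between lower and higher calls depended on which libraries chose the loci.

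**Figure D1:**
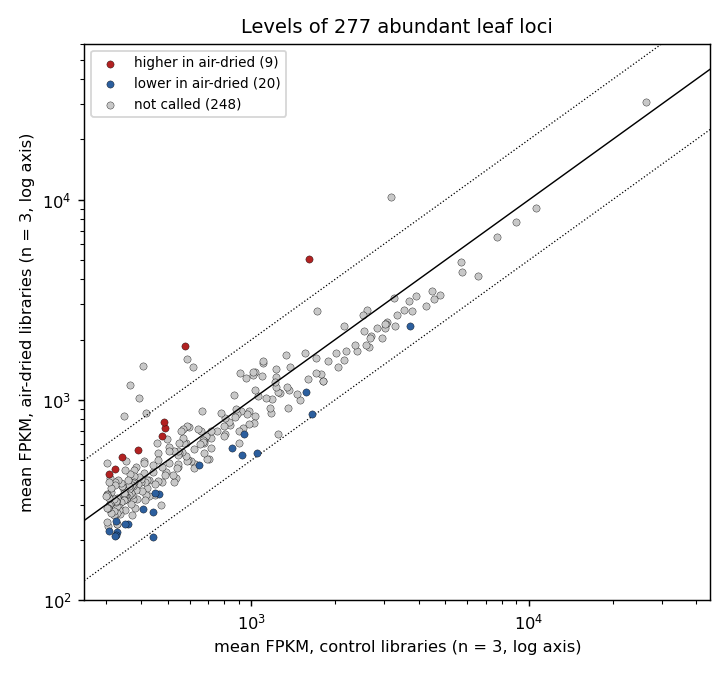
Mean FPKM in air-dried libraries (vertical, log axis) against control libraries (horizontal, log axis) for the 277 tested abundant loci, with the line of equality and dotted lines at 2-fold; red and blue points passed the test. Most points above 3000 FPKM lie below the line of equality, and the 2 red points above the upper dotted line are neighbours on chromosome 10.

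The higher the level, the lower the air-dried values stood. Among loci with the same structure, the median log2 change was 0.08 at a control mean of 10 to 30 FPKM, 0.05 at 30 to 100 FPKM, 0.02 at 100 to 200 FPKM and -0.01 at 200 to 300 FPKM. Within the abundant set it was -0.06 for 124 loci at 300 to 500 FPKM, -0.10 for 72 loci at 500 to 1000 FPKM, -0.27 for 57 loci at 1000 to 3000 FPKM and -0.34 for 24 loci at 3000 FPKM and above. Of those 24 loci, 22 were lower in air-dried leaves and 17 had every air-dried value below every control value, yet only 1 passed the test. The test lets the expected spread depend on level. Among the abundant loci the median SD between control libraries was 0.11 log2 units at 300 to 500 FPKM and 0.14 at 1000 to 3000 FPKM, and 0.11 at 3000 FPKM and above. Without the level-dependent spread, 32 abundant loci were called lower and 15 higher, among 629 lower and 1609 higher over all tested loci.

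The trend with level was seen also when loci were classed by their air-dried values, a choice that tilts the change upwards. The median log2 change was then 0.07 for 127 loci at 300 to 500 FPKM, -0.06 for 78 at 500 to 1000 FPKM, -0.21 for 69 at 1000 to 3000 FPKM and -0.22 for 15 at 3000 FPKM and above. Short loci are more frequent at high levels, with a median span of 1717 bases at 3000 FPKM and above against 2889 bases at 300 to 500 FPKM. Among loci at 1000 FPKM and above, the median change was -0.34 for the 43 spanning up to 2000 bases and -0.23 for the 38 longer ones. Below 1000 FPKM it was -0.10 for the 61 loci spanning up to 2000 bases and -0.06 for the 135 longer ones. These medians describe classes formed after the data were seen and carry no test.

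**Figure D2:**
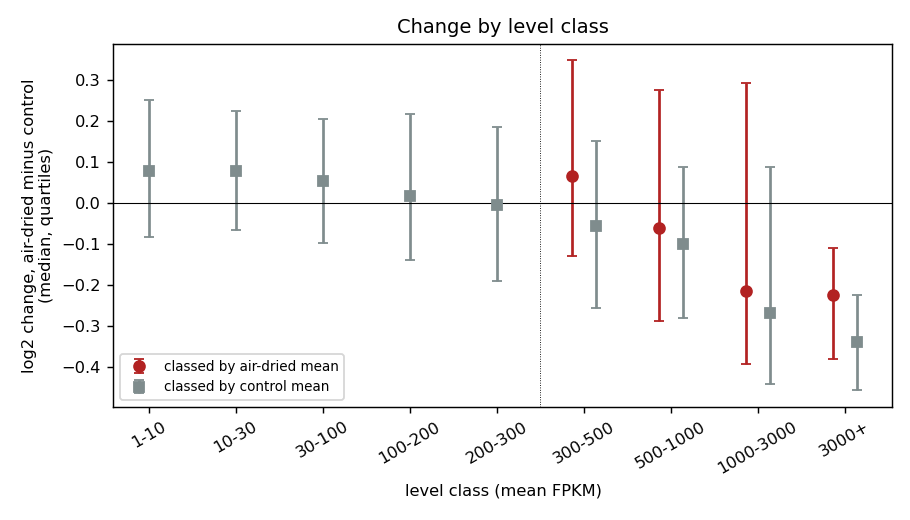
Median log2 change, air-dried minus control (vertical; bars span the quartiles), by class of mean FPKM (horizontal, low to high) for tested loci that met the structural conditions. The dotted line marks 300 FPKM; classed by control mean the medians run from -0.06 to -0.34 above it, and classed by air-dried mean from 0.07 to -0.22.

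Taken as a share of all FPKM at loci without short transcripts, the abundant loci held 29.7%, 34.7% and 34.1% in air-dried replicates 1, 2 and 3, against 40.2%, 36.3% and 41.6% in control replicates 1, 2 and 3. The mean was 32.8% ± 2.73 in air-dried leaves and 39.4% ± 2.75 in control leaves (SD, n = 3 each), and the groups did not overlap. Loci read in 1 library alone moved these shares on both sides. The low share of air-dried replicate 1 rests partly on a locus outside the set, an assembled transcript on chromosome 11 at 16002561 to 16003629 that stood at 160442 FPKM in that library and was listed at 0 in the other five. Without that locus the share in air-dried replicate 1 was 34.5%. The high share of control replicate 3 rests partly on an abundant locus on chromosome 5, described with the highest levels, and was 39.5% without it. Over loci that passed the filter on low values, which leaves out both, the difference between the group means was -4.21 percentage points, against -6.55 over all loci. Counting only loci with an annotated transcript, the share was 32.8%, 33.0% and 32.0% in the air-dried libraries and 37.8%, 35.3% and 37.8% in the control libraries, again without overlap. Since the loci were picked for high control values, some gap comes with the choice itself, and no test was made of it.

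The order at the top changed little. Of the 10 loci with the highest control means, 7 were among the 10 highest in air-dried leaves, and of the 100 highest, 86 were shared. The highest level belonged to an assembled transcript of 822 bases on the minus strand of chromosome 1 at 40733379 to 40734200. It had 37869, 28282 and 26657 FPKM in air-dried replicates 1, 2 and 3 and 36589, 18054 and 24254 FPKM in control replicates 1, 2 and 3, and the groups overlapped (log2 change 0.28, SE 0.44, adjusted p = 0.753). This transcript overlaps an annotated locus on the plus strand at 40733056 to 40734123, itself abundant, with 646, 1772 and 1654 FPKM in the air-dried libraries and 824, 1212 and 699 FPKM in the control libraries. The labels do not say that the libraries kept strand, so the reads of this pair cannot be told apart with certainty.

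The locus ranked 3 by control mean owed its level to 1 library and is given after the other 8 of the top 10, which hold annotated transcripts. On chromosome 10 at 18258521 to 18261722, FPKM averaged 9077 ± 767 in air-dried and 10585 ± 564 in control leaves (mean ± SD, n = 3 per group here and below). On chromosome 11 at 2703083 to 2704086, the level was 7737 ± 354 in air-dried and 8968 ± 261 in control leaves. Both had all air-dried values below all control values, but neither passed the test (adjusted p = 0.599 and 0.577). On chromosome 4 at 8433533 to 8435079, the level was 6517 ± 615 in air-dried and 7662 ± 1255 in control leaves, with overlapping groups.

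Further down the order, the gap between the groups was wider. The locus on chromosome 19 at 10697156 to 10699184 had 4272, 4550 and 4178 FPKM in air-dried leaves and 6176, 5270 and 5762 FPKM in control leaves (log2 change -0.40, SE 0.18, adjusted p = 0.214). The locus on chromosome 5 at 24197287 to 24201358 had 3038, 3716 and 3256 FPKM in air-dried leaves and 5185, 4338 and 4813 FPKM in control leaves (-0.52, SE 0.18, adjusted p = 0.129). The locus on chromosome 10 at 19569020 to 19570480 had 3429, 3155 and 2979 FPKM in air-dried leaves and 4786, 3783 and 5059 FPKM in control leaves (-0.50, SE 0.19, adjusted p = 0.157). In all 3 the groups were separate, yet none of the 3 passed the test.

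The spread between control libraries was wider at the short locus on chromosome 6 at 25054879 to 25055671, with 5641, 3531 and 3305 FPKM in air-dried leaves and 7585, 3279 and 8728 FPKM in control leaves. On chromosome 14 at 13248183 to 13249779, the level was 4880 ± 491 in air-dried and 5663 ± 229 in control leaves, with the highest air-dried value just above the lowest control value. The locus ranked 3 by control mean, an assembled transcript spanning 10492145 to 10498228 on chromosome 5, had listed values of 0 in all 3 air-dried libraries and in control replicates 1 and 2 and 30836 FPKM in control replicate 3. It qualified through that library alone, and it was the abundant locus that failed the filter on low values.

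The largest rises that passed the test lay side by side on the plus strand of chromosome 10. POPTR_0010s16050, an annotated locus of 505 bases at 15106443 to 15106947, had 7500.0, 3996 and 3745 FPKM in air-dried replicates 1, 2 and 3 and 1796, 1155 and 1888 FPKM in control replicates 1, 2 and 3. Every air-dried value exceeded every control value, and air-dried replicate 1 was the highest of all. The ratio of means was 3.15, with a log2 change of 1.61 (SE 0.34, adjusted p = 0.0387). By level it ranked 6 in air-dried leaves and 50 in control leaves, counted over loci of the same structure.

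Its neighbour POPTR_0010s16060, an annotated locus at 15121276 to 15122615, had 2491, 1631 and 1433 FPKM in air-dried replicates 1, 2 and 3 and 586, 381 and 759 FPKM in control replicates 1, 2 and 3. The groups were again separate, with a ratio of 3.22 and a log2 change of 1.70 (SE 0.32, adjusted p = 0.0268). Control replicate 2 was the lowest library at both loci, and air-dried replicate 1 the highest. These were the called rises of at least 2-fold, 2 of 277 or 0.722%, against 2.18% of all tested loci. Another 3 loci, all of assembled transcripts alone, differed by 2-fold or more on the log2 scale without passing.

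The third abundant locus of the row, at 15124126 to 15131304, merges 2 annotated genes. It had 1474, 1599.7 and 1529 FPKM in air-dried leaves and 1206, 996 and 1097 FPKM in control leaves. The groups were separate, but the locus did not pass the test (log2 change 0.48, SE 0.12, adjusted p = 0.0628, or 0.0485 with the filter at 5 FPKM). It also passed with library weights (0.0138) and without the level-dependent spread (0.0308). Leaving out a library gave an adjusted p of 0.0689 to 0.191, and the 4 scalings gave up to 0.934. Of its annotated transcripts, the one at 15124126 to 15125075 had 669, 789 and 721 FPKM in air-dried leaves and 634, 535 and 611 FPKM in control leaves, and the one at 15129960 to 15131304 had 806, 810.3 and 808 FPKM in air-dried leaves and 572, 460.4 and 487 FPKM in control leaves.

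All 3 loci lie inside a longer plus-strand locus of 41176 bases at 15101038 to 15142213, outside the set through its span, so reads could be divided among them. That longer locus had 525, 812 and 703 FPKM in air-dried leaves and 444, 415 and 408 FPKM in control leaves (log2 change 0.66, SE 0.17, adjusted p = 0.0666). Next to it on the upstream side, a locus at 15086593 to 15088287 rose to 15.1 ± 0.606 FPKM in air-dried leaves, against 0.387 ± 0.222 FPKM in control leaves (adjusted p = 8.03e-05). On the downstream side, the locus at 15145522 to 15148223 stood at 59.5 ± 2.11 FPKM in air-dried and 58.8 ± 2.85 FPKM in control leaves (adjusted p = 0.914). Whether the genes of this row resemble each other in sequence, in which case their reads may be shared, is not known here. The call of the first was lost without air-dried replicate 2 or 3 (adjusted p = 0.0820 and 0.0814) or control replicate 1, 2 or 3 (0.109, 0.104 and 0.0956), after quantile normalization (0.105) and with no filter on low values (0.350). That of the second was lost without air-dried replicate 2 or 3 (0.0748 and 0.0618) or control replicate 1 or 2 (0.0930 and 0.0616) and with no filter (0.0939), but held under all 4 scalings.

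**Figure D3:**
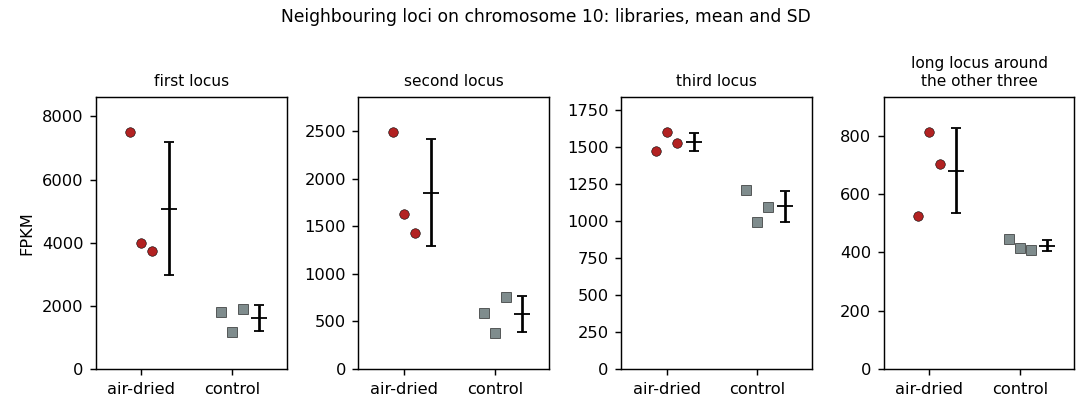
FPKM in each library (points; air-dried left, control right) with mean and SD (bars, n = 3) for the neighbouring loci on chromosome 10, each panel with its own linear axis from 0. Air-dried values exceed control values in every panel, by 3.15 and 3.22 times at the first and second locus and by 1.40 and 1.61 times at the third and at the long locus around them.

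The other 7 rises were smaller, with log2 changes of 0.47 to 0.68, and started from control means of 306 to 490 FPKM. On chromosome 18 at 4918296 to 4920601, FPKM stood at 812, 764 and 761 in air-dried leaves and at 509, 482 and 467 in control leaves (log2 change 0.68, SE 0.09, adjusted p = 0.00790). It was the only rise that stayed called whichever library was left out, with adjusted p between 0.0146 and 0.0480. On chromosome 6 at 8775604 to 8779727, FPKM stood at 508, 513 and 528 in air-dried leaves and at 361, 329 and 335 in control leaves (log2 change 0.60, SE 0.08, adjusted p = 0.00890). Both were tight within groups and clearly apart between them.

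On chromosome 2, the locus at 9018074 to 9019750 had 617, 802 and 757 FPKM in air-dried leaves and 508, 494 and 466 FPKM in control leaves (log2 change 0.56, adjusted p = 0.0462). A second locus on chromosome 2, at 878183 to 883505, merges 2 annotated genes and had 459, 447 and 453 FPKM in air-dried leaves and 336, 295 and 334 FPKM in control leaves (log2 change 0.50, adjusted p = 0.0217). Most of that difference lay in the transcript at 878183 to 879485, with 367, 339 and 347 FPKM in air-dried leaves and 225, 209.9 and 228 FPKM in control leaves.

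On chromosome 5 at 7804781 to 7807538, the level rose to 564 ± 24.8 FPKM in air-dried leaves, against 392 ± 15.9 FPKM in control leaves. On chromosome 4 at 15690338 to 15691928, it rose to 425 ± 5.81 FPKM, against 306 ± 15.2 FPKM in control leaves. On chromosome 16 at 736538 to 738290, it rose to 663 ± 17.6 FPKM, against 478 ± 11.8 FPKM in control leaves. Their adjusted p lay between 0.0161 and 0.0207. None of these 7 rises stayed called after quantile normalization, where their adjusted p was 0.552 to 0.869.

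The falls were modest, with log2 changes of -0.39 to -1.07 and a median ratio of air-dried over control of 0.673. A called fall of 2-fold or more was seen at 1 of 277 loci, or 0.361%, against 0.295% of all tested loci. That locus, POPTR_0016s01720.r1 on chromosome 16 at 777229 to 779261, had 179, 229 and 212 FPKM in air-dried leaves and 438, 565 and 326 FPKM in control leaves (log2 change -1.07, SE 0.22, adjusted p = 0.0329). All control values lay above all air-dried values. The call held in 1 of the 6 fits that left out a library, with adjusted p up to 0.113.

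POPTR_0006s06430, on chromosome 6 at 4590788 to 4592356, had 669, 1017 and 858 FPKM in air-dried leaves and 1662, 1831 and 1453 FPKM in control leaves (log2 change -0.97, SE 0.19, adjusted p = 0.0297). On chromosome 3 at 7861820 to 7862559, FPKM stood at 630, 497 and 504 in air-dried leaves and at 1138, 837 and 1164 in control leaves (-0.94, SE 0.18, adjusted p = 0.0264). The groups were separate at both. Each call held in 2 of the 6 fits that left out a library, with adjusted p up to 0.1078 and 0.1075. Both were lost with no filter on low values (0.1162 and 0.08095). The call on chromosome 6 was also lost after quantile normalization (0.1194) and equal sums (0.1189). Of the falls called as deposited, the locus on chromosome 3 was the only one also called under all 4 scalings, with adjusted p up to 0.0274. A locus on chromosome 1 at 10183082 to 10184958, not called as deposited, was also called lower under all 4.

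The steadiest fall was on chromosome 9 at 4675620 to 4678655, with 216, 200.4 and 207 FPKM in air-dried leaves and 323, 333 and 312 FPKM in control leaves (log2 change -0.63, SE 0.07, adjusted p = 0.00517). It was the only fall called whichever library was left out, with adjusted p between 0.00877 and 0.0405. On the same chromosome at 7992218 to 7994784, FPKM stood at 490, 541 and 565 in air-dried leaves and at 841, 1011 and 934 in control leaves (-0.80, SE 0.12, adjusted p = 0.0106). Also on chromosome 9, the locus at 10519793 to 10527510 fell to 239 ± 13.5 FPKM in air-dried leaves, against 360.2 ± 39.2 FPKM in control leaves (adjusted p = 0.0237).

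On chromosome 14 at 12402397 to 12403947, FPKM stood at 2261, 2437 and 2287 in air-dried leaves and at 4072, 3562 and 3550 in control leaves (log2 change -0.68, SE 0.15, adjusted p = 0.0407). By control mean it was the most abundant locus to pass the test, while POPTR_0010s16050 was higher in air-dried leaves. Its call was lost in every fit that left out a library, with adjusted p between 0.0558 and 0.167. The remaining large falls were on chromosome 16 at 9145049 to 9146358, with 218 ± 8.82 FPKM in air-dried and 329 ± 18.7 FPKM in control leaves, on chromosome 5 at 21685507 to 21686311, with 211 ± 20.8 FPKM in air-dried and 326 ± 38.0 FPKM in control leaves, and on chromosome 2 at 2828347 to 2829310, with 276 ± 15.3 FPKM in air-dried and 441 ± 69.0 FPKM in control leaves, with adjusted p between 0.00933 and 0.0343. Another 10 loci fell by less, with log2 changes of -0.39 to -0.55. Of 19 calls, the 9 rises and the 10 largest falls, 15, 6 and 4 held without air-dried replicates 1, 2 and 3 in turn. Without control replicates 1, 2 and 3, 5, 9 and 4 of them held.

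**Figure D4:**
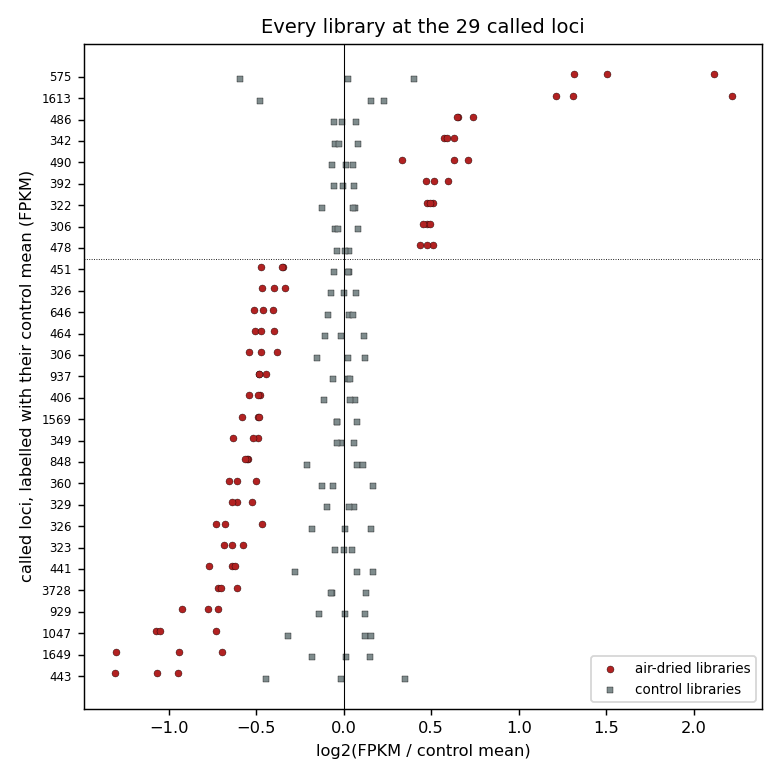
Each library's FPKM relative to the control mean on a log2 scale (horizontal) at the 29 called loci (rows, labelled by control mean), with air-dried libraries in red and control libraries in grey. The groups are separate in every row, and the 2 rows at the top, on chromosome 10, exceed the other rises of 0.47 to 0.68.

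The level of 300 FPKM was crossed in both directions. Of the 278 loci, 247 also averaged at least 300 FPKM in air-dried leaves and 31 did not, of which 10 were called lower. The median control level of those 31 was 329 FPKM. In the other direction, 42 loci below the level in control leaves reached it in air-dried leaves, 21 of them called higher, which brought the number of loci at 300 FPKM or more to 289 in air-dried leaves. Crossing the level sets the direction of change at these loci, so the calls are descriptions. Over all tested loci, 2.81% were called lower and 7.28% higher. Just inside the limit, control means were 300.6, 301.5 and 301.7 FPKM, with air-dried means of 330.0, 289.7 and 333 FPKM. Just outside it, control means were 296.7, 296.3 and 293 FPKM, with air-dried means of 285, 258 and 271 FPKM. None of these 6 loci passed the test.

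Most abundant loci carried several transcripts in the files but were led by few. Of the 278 loci, 71 had 1 transcript and 207 had more, up to 20. In loci with several transcripts, the leading transcript supplied a median of 76.2% of the FPKM in air-dried leaves and 78.5% in control leaves. Annotated and assembled transcripts were mixed at 191 loci, 70 loci held annotated transcripts only, 8 merged 2 annotated genes and 9 held assembled transcripts only. Transcripts assembled from the reads supplied most of the control FPKM at 81 loci.

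The 9 loci of assembled transcripts alone were the least steady. The 8 that were tested had a median SD between libraries of 1.33 log2 units in air-dried and 0.59 in control leaves, against 0.105 and 0.109 over all tested abundant loci, and none of the 8 passed the test. Without these loci the counts were the same, 20 lower and 9 higher. On chromosome 17 at 4439583 to 4447094, FPKM stood at 25536, 2600.2 and 2885 in air-dried leaves and at 3671, 1979 and 3896 in control leaves, with 1 air-dried library far above the rest. The locus spanning 19143002 to 19149273 on chromosome 10 had a listed FPKM of 0 in air-dried replicate 1 and stood at 1213 and 2350.1 in air-dried replicates 2 and 3 and at 118, 586 and 391 in control leaves.

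No abundant locus showed an unequal change among its transcripts that passed the test. Of 188 loci with at least 2 tested transcripts, 0 were called (limma diffSplice with Simes adjustment, Benjamini-Hochberg over 10643 loci), against 1.21% of all loci, and 31 had an unadjusted p under 0.05, or 16.5% against 11.7% of all loci. One of the 5 loci with the lowest p, on chromosome 1 at 35204626 to 35207789, missed the threshold (adjusted p = 0.0608). Its annotated transcript had 236, 232 and 238 FPKM in air-dried leaves and 356, 355 and 333 FPKM in control leaves. An assembled transcript over the same interval had 74.2, 91.9 and 78.3 FPKM in air-dried leaves and 0.00245, 4.13 and 7.14 FPKM in control leaves. The sum of the locus was 321 ± 7.60 FPKM in air-dried and 353 ± 11.8 FPKM in control leaves (adjusted p = 0.303). The other 4 loci with the lowest adjusted p, between 0.0572 and 0.110, lay on chromosomes 7, 10, 2 and 15. At the locus on chromosome 7, at 12389282 to 12391251, the second transcript was at or under 1.91 FPKM in every library.

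Most abundant loci were measured with little spread. The coefficient of variation had a median of 7.21% in air-dried and 7.65% in control leaves, and it was under 5% at 91 loci in air-dried and 84 loci in control leaves. The steadiest controls were those of a locus on chromosome 18 at 12486436 to 12490893, which had 1108, 1032 and 1041 FPKM in air-dried leaves and 862, 868 and 863 FPKM in control leaves (log2 change 0.29, adjusted p = 0.115). On chromosome 12 at 7739778 to 7742413, FPKM stood at 703, 703 and 699 in air-dried leaves and at 905, 898 and 907 in control leaves (-0.36, adjusted p = 0.0527, or 0.0389 after median-of-ratios and 0.0358 after upper-quartile scaling). It also passed with a pseudocount of 0.1, the filter at 5 FPKM, library weights and no level-dependent spread. Its adjusted p was up to 0.266 among the 4 scalings and 0.0649 to 0.193 without a library. The locus on chromosome 1 at 3137219 to 3141143 had 440.4, 430.1 and 396 FPKM in air-dried leaves and 489.9, 484 and 490.3 FPKM in control leaves (-0.21, adjusted p = 0.179). All 3 had separate groups and missed the threshold. The test shares its estimate of spread among loci of like level.

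At the other end, the coefficient of variation exceeded 50% at 10 loci in air-dried and 7 loci in control leaves. On chromosome 9 at 377754 to 381071, FPKM stood at 385, 800.4 and 740.2 in air-dried leaves and at 102, 509 and 1091 in control leaves. On chromosome 3 at 3506938 to 3507882, it stood at 808, 104 and 91.3 in air-dried leaves and at 709.8, 573 and 64.5 in control leaves. The groups overlapped at both.

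Air-dried replicate 1 and control replicate 2 held most of the values that stood apart. Air-dried replicate 1 was more than 2-fold above both other air-dried libraries at 10 abundant loci and more than 2-fold below both at 2, and the other air-dried libraries at 0 loci. Of those 10 loci, 5 held assembled transcripts only. A locus among them with annotated and assembled transcripts, on chromosome 1 at 35851249 to 35853451, had 3864, 256 and 303 FPKM in air-dried leaves and 452, 164 and 605 FPKM in control leaves. Control replicate 2 was more than 2-fold below both other controls at 9 loci and above at 1. In that library the departure went with span: relative to the other controls, its median was -0.35 log2 units at loci spanning 500 to 1000 bases, -0.19 at those over 1000 and up to 2000 bases, -0.03 at those over 2000 and up to 4000 bases and -0.01 at longer ones. Over the same classes, air-dried minus control medians were -0.31, -0.17, -0.07 and -0.12. The part of library differences in the changes of short abundant loci was not tested. Among the 173 tested loci spanning over 2000 bases, 10 fell, 4 rose and the median log2 change was -0.07.

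**Figure D5:**
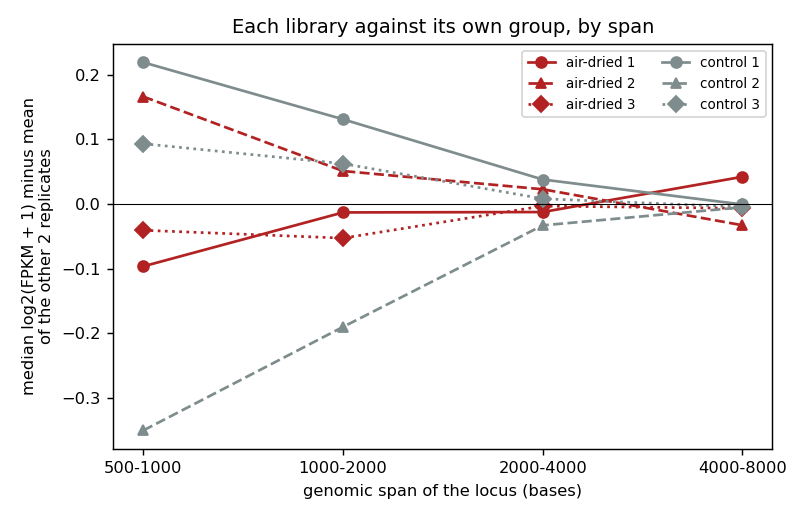
Median over abundant loci of each library's log2(FPKM + 1) minus the mean of the other 2 libraries of its group (vertical), by genomic span in bases (horizontal); red lines are air-dried and grey lines control libraries. At 500 to 1000 bases control replicate 2 lies at -0.35 and control replicate 1 at 0.22, and above 4000 bases all 6 lie within 0.05 of 0.

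Some abundant loci share ground with other loci. Of the 278, 41 overlapped another locus, 34 of them at least 1 with a different strand label, and 4 of the 29 called loci were among the 41. Beyond the row on chromosome 10 and the overlapping pair at the top of the order, neighbouring abundant loci were found in 3 places. On chromosome 5, the locus at 24197287 to 24201358 overlaps one on the other strand at 24199530 to 24200668 that fell to 222 ± 12.4 FPKM in air-dried leaves, against 306 ± 29.3 FPKM in control leaves (log2 change -0.46, adjusted p = 0.0419). The smaller locus lies within the larger, which stood at 4779 FPKM in control leaves with a log2 change of -0.52. On chromosome 15, loci at 8503407 to 8510153 and at 8514429 to 8517940 lay 4275 bases apart on the plus strand, with log2 changes of -0.19 and -0.25 that did not pass. On chromosome 1, an assembled locus at 25447046 to 25447736 overlaps an annotated one on the other strand, with log2 changes of -0.56 and -0.21 that did not pass. The labels do not say that the libraries kept strand. Reads of the overlapping loci on chromosomes 5 and 1 therefore cannot be told apart with certainty.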

How the data were processed

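Leaf poly(A) RNA was sequenced as 100 bp paired ends from 3 air-dried and 3 control samples of RNA integrity number 7 or above, per the labels' protocols. The authors deposited FPKM per transcript, per the file headers, made with FastQC, TopHat and Cufflinks per the submitters' processing notes; the sources used here give no version, genome build or annotation. FPKM divide fragments by length and depth, so counts are not visible, and an FPKM of 0 can be a failed estimate.

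FPKM were summed over the transcripts of each locus. The 22729 loci that reached 1 FPKM in 3 or more of the 6 libraries were tested on log2(FPKM + 1) with limma 3.58.1 in R 4.3.3 (mean-variance trend, two-sided, no covariates, Benjamini-Hochberg at 0.05), and transcripts with diffSplice. Fold changes on this scale understate those of low loci. At the locus at 15086593 on chromosome 10, a ratio of 39.1 gave a log2 change of 3.55. This can lower the share of all tested loci called at 2-fold or more. Spans are genomic. The fits were tested on simulated data. The members, lists and tests were chosen with earlier results of these data known. Loci named are the 10 highest, up to 10 called in each direction, the 3 to each side of the limit, the 3 steadiest and 3 least steady, the 5 with the lowest p for transcript balance, and rows of 3 or more neighbours; others were chosen after their values were seen. Relative depth was read from steps in values below 0.08 FPKM, using single-transcript loci longer than 1500 bases. Replicate numbers were not used as pairs in the main fit, and no label says whether they pair the samples. Figures were drawn with matplotlib 3.10.9.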

Additional observations from a re-analysis of the deposited data

How the results depend on the processing

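The replicate number as a block called 0 abundant loci higher and 0 lower, among 753 higher and 175 lower over all tested loci. The deviations of same-numbered libraries correlated across all tested loci at 0.09, 0.19 and -0.12 for replicates 1, 2 and 3. Among the abundant loci the same correlations were 0.565, 0.533 and -0.03. Deviations within a group of 3 libraries are tied to each other, so these correlations cannot decide whether the numbers pair the samples. Of 19 called loci, the 9 rises and the 10 largest falls, none changed direction in these settings. Of these, 9 lost their call with no filter on low values, 16 with equal sums over long loci and 12 with quantile normalization. Upper-quartile scaling lost 5, median-of-ratios scaling 1, and leaving out a library 4 to 15. The sums over long loci were 1153162 FPKM in air-dried replicate 1 and 805100 to 868500 FPKM in the other libraries. The first includes the chromosome 11 locus at 160442 FPKM, and its part in the lost calls was not tested.

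Counts of abundant loci called moved by over 1.5 times under several settings. With no filter on low values 12 were lower, among 475 over all loci, and the causes of such moves were not tested. Median-of-ratios scaling gave 32 lower, quantile normalization 1 higher and 10 lower, upper-quartile scaling 4 and 33, and equal sums over long loci 2 and 2. Library weights gave 30 higher and 89 lower, among 4326 and 2108 over all tested loci, and no mean-variance trend 15 and 32, among 1609 and 629. The weights were 0.29, 0.61 and 7.5 for air-dried replicates 1, 2 and 3 and 0.56 to 1.36 for the control libraries. The weighted fit thus leaned mainly on air-dried replicate 3 for its group. Leaving out a library gave 1 to 12 higher and 3 to 17 lower. A limit of 200 FPKM gave 25 higher and 36 lower of 452 loci, and 500 FPKM gave 2 and 8 of 153. Members chosen from all 6 libraries gave 20 and 13 of 280, and from the air-dried libraries 30 and 10 of 289. No limit on span gave 14 higher of 312. The sets differ in size, so these counts are not directly comparable. Over all tested loci 1655 were higher and 638 lower in each of these. Members over 2000 bases, a choice made after seeing the data, gave 4 and 10, from fewer loci.

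The median log2 change was -0.207 after median-of-ratios scaling, -0.433 after quantile normalization, -0.262 after upper-quartile scaling and -0.276 after equal sums. It was -0.161 to -0.105 without a library, -0.07 at 200 FPKM, -0.214 at 500 FPKM, -0.0724 for members from all 6 libraries, -0.0292 from the air-dried libraries, -0.0654 from control replicate 1 alone and -0.0747 over 2000 bases. The share of summed FPKM, air-dried minus control, was -6.55 percentage points, -22.9 after quantile normalization of all loci and -4.07 for members chosen from the air-dried libraries; scaling a whole library leaves a share as it is. Over loci that passed the filter, a choice made after seeing the data, it was -4.21. Unequal transcript change was called at 2 and 1 of 188 abundant loci with pseudocounts of 0.1 and 5, among 128 and 140 over all loci. A filter at 5 FPKM gave 2 of 168, among 28 over all loci. Leaving out a library gave 0 to 9 of 188. Without control replicate 2 it was 9, among 221 over all loci, and without air-dried replicate 1 it was 4, among 251. Absolute depth is unknown, so counting error cannot be given, but levels of 300 FPKM and above are far from the lowest values.

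Of 34 other tested loci described with values, 10 changed direction in at least 1 setting, and none of the 10 passed the test as deposited. Quantile normalization turned the log2 change on chromosome 1 at 40733379 to -1.56 (as deposited 0.28), on chromosome 18 at 12486436 to -0.0149 (0.29), and, just inside the limit, on chromosome 6 at 11369086 to -0.11 (0.15) and on chromosome 10 at 18510713 to -0.134 (0.13). Equal sums gave -0.00258 and -0.0178 at these last loci, and upper-quartile scaling -0.00366 on chromosome 10. Library weights gave -0.036 at 40733379, -0.105 on chromosome 17 at 4439583 (0.92), 2.83 on chromosome 10 at 19143002 (-1.09), -0.324 on chromosome 1 at 35851249 (0.91) and 0.0206 just outside the limit at 44582277 (-0.07). Leaving out a library gave ranges of -0.154 to 1.49 at 4439583, -3.11 to 2.49 at 19143002, -0.351 to 1.6 at 35851249 and -0.153 to 0.0642 at 44582277, all turned without air-dried replicate 1, and of -0.286 to 1.42 on chromosome 9 at 377754 (0.67) and -1.68 to 0.0368 on chromosome 3 at 3506938 (-0.59), both turned without control replicate 1.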

Other observations

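Abundant loci were found on all 19 numbered chromosomes and on 2 scaffolds, 140 on the plus and 138 on the minus strand. They made up 0.818% of tested loci with the same structure on chromosome 12, 0.906% on chromosome 13 and 0.936% on chromosome 17, against 2.41% on chromosome 11 and 2.05% on chromosome 2. Chromosome 1 held the most, 35. Of the called loci, 3 of the 20 that fell lay on each of chromosomes 2, 6 and 9, which held 27, 18 and 14 abundant loci. Of the 9 that rose, 2 lay on each of chromosomes 2 and 10, which held 27 and 18. No called locus lay on chromosomes 7, 8, 12, 13, 15 or 17, of which chromosome 8 held 19 abundant loci. No test was made of these counts, which are too small to read by position. The share of all tested loci called on each chromosome was not computed.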
